A study of Homo sapiens with 52 samples.

Results

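The collagen genes are the genes that encode the alpha chains of collagen, and they were chosen as all rows of the expression tables whose name has the form COL, a type number, A and a chain number. The rule found 44 of 27043 listed genes: 11 fibrillar genes, 6 basement membrane genes and 27 genes of other types. Their expression was measured by RNA-seq in fusion-positive rhabdomyosarcoma (FP-RMS) cells, a childhood muscle-lineage tumour driven by the PAX3-FOXO1 fusion, in 52 samples. In the screen, 20 compounds were each given at a high dose of 5 or 10 µM and a low dose of 0.5 or 1 µM for 6 h, with 1 sample at each dose. The matching control cells received the solvent, DMSO, at 0.2% (2 libraries, set against the high doses) or 0.1% (2 libraries, set against the low doses). N1302 at 1 µM for 6 h had 1 sample and 1 sample of 0.1% DMSO, and entinostat at 1 µM had 1 sample at each of 1, 6 and 24 h with 1 DMSO sample at each time. N1302 and entinostat both inhibit histone deacetylases (HDACs). The titles of the screen samples name RH41 cells and their cell line label names RH4 cells, so levels in the screen were never tested against levels in the other samples, which both labels call RH4. All drugs were dissolved in DMSO, and no label says that libraries of a group came from separate cultures. Tests of compounds against DMSO used both doses of a compound, and both DMSO concentrations, as replicates. Their p-values measure that spread, pooled over the screen, which includes any effect of dose. They do not measure a spread between cultures.

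The 7 compounds of the acetylation axis were, with the targets given in the labels, LAQ824 (HDAC), WT161 (HDAC6), MC 1568 (HDAC4/5), Merck60 (HDAC1/2), OJI-1 (HDAC8), Bromosporin (bromodomains) and SGC-CBP30 (the CREBBP/EP300 bromodomain). The 11 compounds of the methylation axis were Cpd50 (pan Jumonji), GSKJ4 (JMJD3/UTX), EZ-005 (EZH2), UNC1999 (EZH1), GSKLSD1, LSD-519 and LSD-690 (all LSD1), UNC0638 (KMT1C), SGC0946 (DOT1L), PFI-2 (SETD7) and UNC-1215 (L3MBTL3). PFI-3 (SMARCA4) and Trametinib (MEK1/2) belonged to neither. GSKJ4, Cpd50 and LAQ824 were the compounds whose high dose was 5 µM.

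Collagens are secreted proteins in which 3 alpha chains wind into a triple helix. Fibrillar collagens (types I, II, III, V, XI, XXIV and XXVII) are deposited as banded fibrils, type IV chains form the sheet-like network of basement membranes, and the remaining types decorate fibrils (FACIT collagens), form beaded filaments (type VI) or anchoring fibrils (type VII), or sit in the cell membrane. Type I collagen is normally built from COL1A1 and COL1A2 chains in unequal number, and type III from COL3A1 chains alone. Chains are hydroxylated and glycosylated in the endoplasmic reticulum, folded with the help of the chaperone SERPINH1, trimmed outside the cell and cross-linked by lysyl oxidases. In skeletal muscle, collagens I, III and VI surround the fibres and type IV lies in the sheath of each fibre.

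The promoters of some of the genes described below are shown first. RefSeq promoters (build GRCh38.p14) were found for 32 of the 44 genes. COL1A1, COL1A2 and COL3A1 were among those without one, so theirs are not shown. COL4A1 and COL4A2 lie head to head, and the whole stretch between their RefSeq start sites, 126 bases at chr13:110307158-110307283, is shown on the strand of COL4A2 because both genes are transcribed from it in opposite directions. COL4A3 and COL4A4 form a similar pair with 418 bases between their start sites. For these, and for COL5A3 and COL26A1, the 250 bases before the start site are shown 5′ to 3′ on the strand of the gene, at chr2:227164374-227164623 (plus strand, COL4A3), chr2:227164206-227164455 (minus strand, COL4A4), chr19:10010505-10010754 (minus strand, COL5A3) and chr7:101362625-101362874 (plus strand, COL26A1). The windows of COL4A3 and COL4A4 share 82 bases, read from opposite strands. Capitals mark matches on either strand to 4 motifs: the CCAAT box, the GC box with the letters GGGCGG, the E-box with the letters CAGCTG, a kind of site that MYOD1 and MYOG bind, and the TATA box with the letters TATAAA.
COL4A1-COL4A2: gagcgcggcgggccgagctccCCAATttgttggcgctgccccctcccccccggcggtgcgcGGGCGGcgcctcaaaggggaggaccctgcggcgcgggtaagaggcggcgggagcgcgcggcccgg
COL4A3: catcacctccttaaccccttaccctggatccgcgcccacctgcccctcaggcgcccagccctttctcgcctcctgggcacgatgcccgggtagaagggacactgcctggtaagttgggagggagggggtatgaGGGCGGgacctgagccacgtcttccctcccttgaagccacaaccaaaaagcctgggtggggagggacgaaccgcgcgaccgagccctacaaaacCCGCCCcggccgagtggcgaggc
COL4A4: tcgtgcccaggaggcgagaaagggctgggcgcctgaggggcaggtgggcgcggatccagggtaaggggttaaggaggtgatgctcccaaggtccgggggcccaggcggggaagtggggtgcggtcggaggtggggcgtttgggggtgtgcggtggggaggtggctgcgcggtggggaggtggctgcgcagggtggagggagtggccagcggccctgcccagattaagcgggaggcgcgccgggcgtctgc
COL5A3: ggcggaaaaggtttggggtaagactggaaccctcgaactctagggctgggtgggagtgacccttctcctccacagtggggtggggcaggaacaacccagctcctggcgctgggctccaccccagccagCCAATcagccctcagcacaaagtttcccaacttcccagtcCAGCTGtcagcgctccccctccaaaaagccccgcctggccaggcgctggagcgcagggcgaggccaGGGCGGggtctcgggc
COL26A1: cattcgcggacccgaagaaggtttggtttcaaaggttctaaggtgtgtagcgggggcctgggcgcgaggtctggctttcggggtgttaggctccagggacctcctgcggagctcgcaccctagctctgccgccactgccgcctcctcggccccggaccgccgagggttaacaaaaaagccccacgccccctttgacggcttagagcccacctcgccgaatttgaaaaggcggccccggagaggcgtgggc

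The stretch shared by COL4A1 and COL4A2 was 80.2% G or C and held 1 CCAAT box and 1 GC box. Among the last 126 bases of all 35116 RefSeq promoters, 21.1% held a CCAAT box and 34.6% a GC box. The COL4A3 window held 2 GC boxes and the COL4A4 window held none of the motifs. The COL5A3 window held 1 CCAAT box, 1 GC box and 1 E-box, and the COL26A1 window held none. Of 250-base windows over all promoters, 32.0% held a CCAAT box, 42.6% a GC box, 13.99% an E-box and 10.7% a TATA box, against 9, 18, 3 and 5 of the 32 collagen genes. These matches describe letters in the windows and say nothing of binding in these cells.

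The cells expressed a few collagen genes strongly and most of them weakly. Expression is given as TPM, a transcript's share of all transcripts that is scaled for gene length, so levels of different genes can be compared. In the screen DMSO samples, 28 of the 44 genes had a mean of at least 1 TPM and 12 had at least 10 TPM, and the 44 genes together made up 3753 TPM. Fibrillar genes gave 69.3% of this sum, basement membrane genes 19.1% and other types 11.6%. Means are given ± SD over the 2 DMSO concentrations (n = 2), each the mean of 2 libraries.

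COL3A1, the type III chain (chr2:189839099-189877472 in hg19, the build of the tables), was the highest, at 2047 ± 21.1 TPM, and ranked 50 among all genes. Its 4 DMSO libraries held 2030.2 and 2034 TPM at 0.2% and 2057 and 2067 TPM at 0.1%. COL1A1, the major type I chain (chr17:48261457-48279000), reached 96.4 ± 4.97 TPM, with 96.1, 89.7, 102 and 97.9 TPM in the same order. Its partner COL1A2 (chr7:94023873-94060544) was at 2.39 ± 0.495 TPM, from 80 to 119 reads a library. The type I chains were therefore far apart in level: the ratio of COL1A1 to COL1A2 had a median of 39.5 in the 4 DMSO libraries and ranged from 32.2 to 158 over the 40 treated screen samples. COL5A1, a type V chain that starts fibril assembly (chr9:137533651-137736688), stood at 336 ± 9.42 TPM and COL2A1, the chain of cartilage fibrils (chr12:48366748-48398285), at 89.2 ± 2.86 TPM. The type XI genes were at the other end, with COL11A1 at 0.0166 TPM in 1 library and 0 in the others, and COL11A2 listed at 0 in all 52 samples.

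Among the 6 type IV genes, only COL4A2 (407 ± 16.9 TPM, chr13:110959614-111165556) and COL4A1 (311 ± 11.3 TPM, chr13:110801305-110959504), which form the common type IV molecule, were expressed above 1 TPM. COL4A4 (chr2:227867427-228029275) was at 0.170 ± 0.0246 TPM, and COL4A3 (chr2:228029281-228179508) at 0 to 0.0753 TPM, from 0 to 5 reads a library. COL4A6 stayed at or below 0.0242 TPM and COL4A5 had no read in the 4 libraries. The chains of the specialised networks of kidney, lung and smooth muscle basement membrane were thus at or near the floor in these controls.

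Of the other types, COL6A2, a chain of the beaded filaments (chr21:47518033-47552763), was at 205 ± 7.48 TPM and its neighbour COL6A1 at 11.2 ± 0.111 TPM. COL18A1, the basement membrane proteoglycan that is the source of endostatin (chr21:46825052-46933634), was at 144.1 ± 7.01 TPM. The FACIT genes COL16A1 (chr1:32117848-32169768) and COL12A1 (chr6:75794042-75915623) were at 23.9 ± 0.424 and 17.1 ± 0.334 TPM. These, with the genes above, are the 10 highest collagen genes. The tables also list antisense genes at the COL4A2 and COL18A1 loci, and how strand was counted is not given in the sources used here, so reads of these pairs may not be separable.

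**Figure D1:**
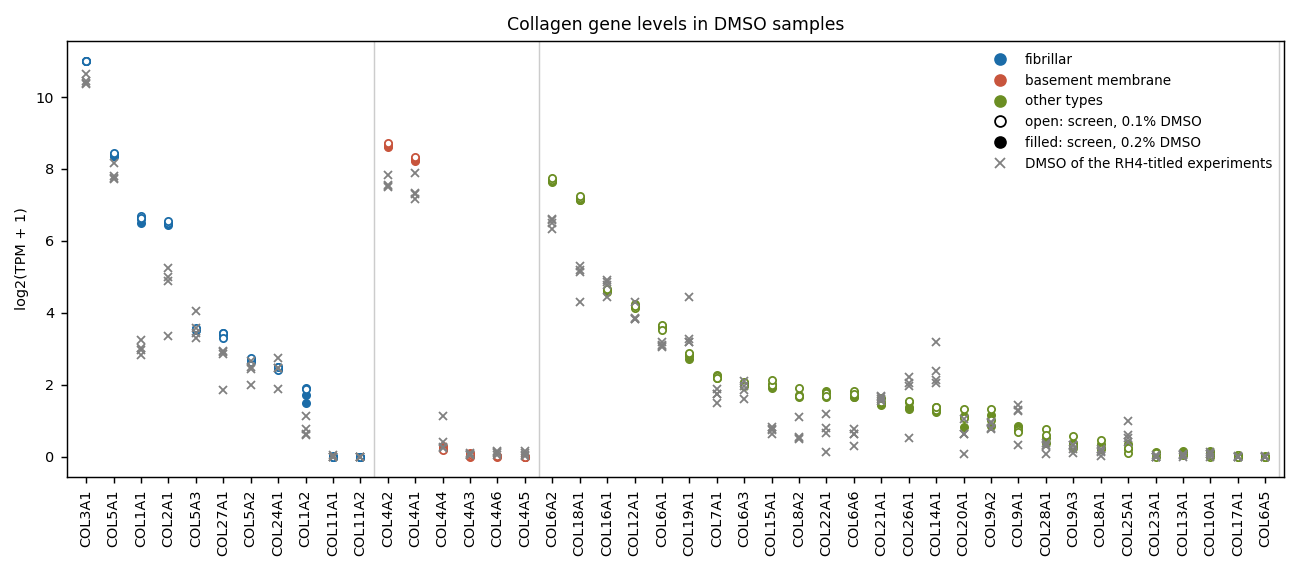
Levels of the 44 collagen genes in DMSO samples, as log2(TPM + 1), by type. Circles are the 4 screen libraries (filled, 0.2%; open, 0.1%) and crosses the 4 DMSO samples of the N1302 and entinostat experiments; COL1A1 lies at 89.7 to 102 TPM in the circles and at 6.17 to 8.48 TPM in the crosses.

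The DMSO samples of the RH4-titled experiments, shown beside the screen controls as a description, had a different balance. COL3A1 was again the highest, at 1326 to 1597 TPM, and COL1A1 was at only 6.17 to 8.48 TPM. COL18A1 was at 18.8 to 38.4 TPM and COL2A1 at 9.35 to 37.1 TPM, both below every screen control. COL19A1, a FACIT gene, was at 20.9 TPM in the DMSO sample of the N1302 experiment and at 8.17 to 8.73 TPM in those of the time course. The labels cannot settle whether line, culture or library preparation lies behind these gaps, and their part was not tested.

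Depth and identity of the samples bear on the low genes. The tables were whole multiples of a step taken as 1 read for all genes, within a tolerance of 0.02 reads. The reads recovered ranged from 5737939 to 41415071 a sample. In the high-dose samples of Bromosporin, Merck60 and PFI-2, 69.5 to 74.4% of low read numbers were even. The other samples had 38.9 to 42.4%, so read numbers of those high-dose samples may be overstated. All 9 rhabdomyosarcoma markers (among them MYOD1, MYOG, DES and FGFR4) were above 1 TPM in DMSO. Of 7 fibroblast markers, PDGFRA, DCN, FAP and LUM had means of 7.08, 2.12, 1.99 and 0.160 TPM in screen DMSO. THY1, TWIST2 and DPT stayed below 1 TPM in every sample, and the summed list was 10.5 to 12.1 TPM in screen DMSO. None of the 6 endothelial and 5 epithelial markers reached a mean of 1 TPM in DMSO. In bulk samples such as these, fewer cells with a transcript and less of it per cell cannot be told apart. The identifier in each table's column name places the libraries on flow cells: 28 libraries of 14 compounds on C5JW5ACXX and 4 of GSKLSD1 and UNC-1215 on H0VWNAGXX, neither with DMSO, and Cpd50 and GSKJ4 on C4JM1ACXX and LAQ824 and MC 1568 on H144EBGXX, each with 1 DMSO library of each concentration. The main comparison therefore set most compounds against DMSO of another flow cell, and a call that was lost against references within the flow cell is named beside its value.

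The screen was used to ask which modulators of chromatin changed the collagen genes after 6 h. A gene entered the test when it reached 1 TPM in at least 2 of the 52 samples, which kept 33 collagen genes (9 fibrillar, 3 basement membrane, 21 other) of 16359 genes. The 11 left out were COL4A3, COL4A5, COL4A6, COL6A5, COL8A1, COL10A1, COL11A1, COL11A2, COL13A1, COL17A1 and COL23A1. Changes are on the log2(TPM + 1) scale, which understates changes of low genes, as the mean of both doses minus the mean of both DMSO concentrations ± SE, and a gene was called at a Benjamini-Hochberg adjusted p below 0.05 in limma. Over the 20 compounds, 56 of 660 tests were called higher and 18 lower (11.2% of collagen tests against 8.70% of the tests of all genes). At least 1 collagen gene was called for 11 compounds and none for 9, and 31 of the 33 genes were called at least once. MC 1568 and LAQ824 gave 44 of the 74 calls. With all 4 DMSO libraries as separate values the lower calls were 35. Without the high-dose samples they were 9, without 0.2% DMSO 7 and without 0.1% DMSO 4; the higher calls were 37 without the high-dose samples.

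**Figure D2:**
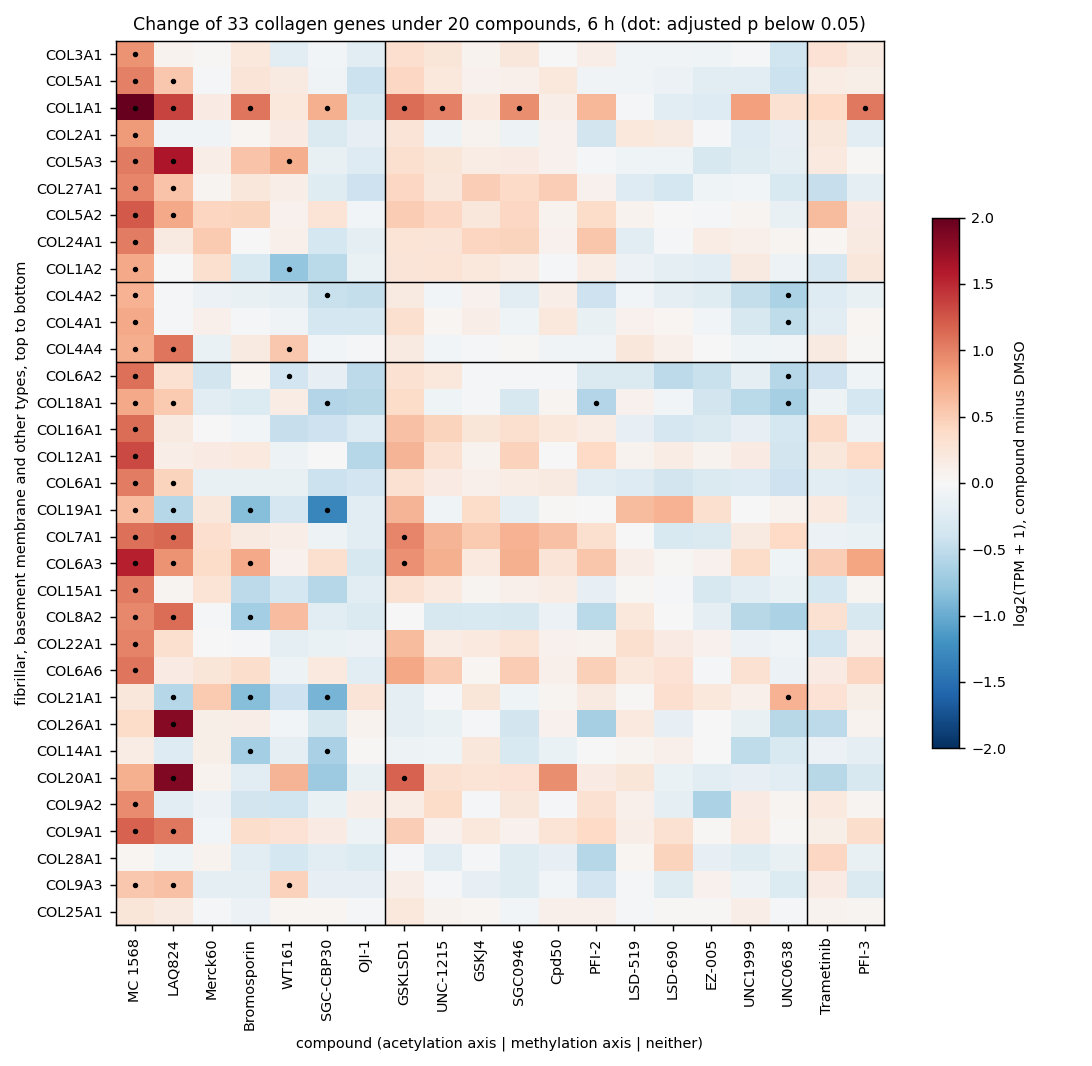
Change of the 33 collagen genes tested (rows, by type and DMSO level) under the 20 screen compounds (columns, by axis), as log2(TPM + 1) of the compound minus DMSO, mean of both doses. Dots mark an adjusted p below 0.05; MC 1568 has 27 higher and no lower, LAQ824 15 higher and 2 lower.

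MC 1568, labelled as an HDAC4/5 inhibitor, raised 27 of 33 collagen genes (81.8%) and lowered none, where 19.6% of all genes tested were called higher and 2.92% lower. The rises covered all 9 fibrillar, all 3 basement membrane and 15 of 21 other genes. The median change of the 33 genes was 0.96 and that of all genes tested 0.26. Within its own flow cell, against the DMSO libraries sequenced there, 27 genes were called higher, with COL4A4 lost and COL20A1 gained, where 38.7% of all genes were. Leaving out 1 dose or 1 DMSO concentration left 18 to 25 calls.

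COL1A1 changed most, to 436 TPM at the high and 366 TPM at the low dose from 89.7 to 102 TPM in DMSO, a change of 2.04 ± 0.19 (adjusted p = 6.07e-07). COL6A3, the large chain of type VI, rose to 12.3 and 10.1 TPM from 2.92 to 3.24 TPM (1.56 ± 0.22, adjusted p = 3.05e-05). COL12A1, which links fibrils to their surroundings, rose to 49.0 and 39.5 TPM from 16.5 to 17.9 TPM (1.31 ± 0.21, adjusted p = 0.00011). In each of these genes both treated samples lay above all 4 DMSO libraries. The genes were picked for the largest called changes, so this separation is no further support.

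The abundant chains rose by less. COL3A1 reached 3991 and 3634 TPM (0.90 ± 0.17, adjusted p = 0.000594), the highest of the 40 treated screen samples. COL5A1 reached 729.5 and 624 TPM (1.00 ± 0.16, adjusted p = 0.000109) and COL2A1 177 and 149 TPM (0.86 ± 0.13, adjusted p = 0.00011). Together the 44 genes rose from between 3693 and 3835 TPM in the DMSO libraries to 7648 TPM at the high and 6740 TPM at the low dose, the largest sums in the screen.
Type IV followed, with COL4A2 at 701 and 616 TPM (0.69 ± 0.12, adjusted p = 0.000226) and COL4A1 at 553 and 495 TPM (0.75 ± 0.12, adjusted p = 0.000168). Of the other types, COL6A2 (499 and 390.3 TPM), COL18A1 (267 and 223 TPM) and COL16A1 (55.5 and 50.9 TPM) changed by 1.10 ± 0.14, 0.76 ± 0.13 and 1.12 ± 0.18, all called. The 6 genes not called were COL14A1, COL20A1, COL21A1, COL25A1, COL26A1 and COL28A1. The summed fibroblast markers were 24.8 and 22.5 TPM under MC 1568 against 10.5 to 12.1 TPM in DMSO. THY1, TWIST2 and DPT, the members of that list that were low in every sample, stayed at or below 0.136 TPM. The summed rhabdomyosarcoma markers were 3719 and 3722 TPM against 3711 to 3856 TPM. The part of such shifts in the collagen values was not tested.

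The genes that modify, export and assemble collagen were counted in the same fit, from lists written from textbook roles. Under MC 1568, 44 of 65 tested genes of these lists were called higher and none lower, where 19.6% of all genes were higher and 2.92% lower. Of 11 genes of prolyl and lysyl hydroxylation 9 were higher: the prolyl 4-hydroxylase subunits P4HA1 (0.72 ± 0.18) and P4HB (0.51 ± 0.13), the lysyl hydroxylases PLOD1 (0.70 ± 0.16), PLOD2 (1.18 ± 0.33) and PLOD3 (0.52 ± 0.11), and P3H1, P3H2, P3H3 and P3H4 (0.57 to 0.79), of the prolyl 3-hydroxylase family. Of 11 chaperone, glycosylation and export genes 4 were higher, namely the collagen chaperones SERPINH1 (0.56 ± 0.12) and FKBP10 (0.78 ± 0.11), the collagen galactosyltransferase COLGALT1 (0.48 ± 0.11) and the transcription factor CREB3L1 (0.74 ± 0.23). The export genes MIA3, SEC23A, CTAGE5 and TMEM131 were not called.

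Outside the cell, 5 of 7 genes of propeptide removal were higher, with the procollagen N-proteinases ADAMTS2 (1.296 ± 0.19), ADAMTS3 (0.84 ± 0.22) and ADAMTS14 (1.03 ± 0.23), the C-proteinase BMP1 (0.66 ± 0.16) and its enhancer PCOLCE (1.04 ± 0.21). Of 9 cross-linking and fibril partner genes 6 were higher, among them the lysyl oxidases LOX (1.11 ± 0.21), LOXL2 (0.67 ± 0.18) and LOXL3 (1.28 ± 0.20), with FN1 (0.93 ± 0.19), LUM (0.66 ± 0.17) and SPARC (0.24 ± 0.08). Of 13 basement membrane partner genes 12 were higher, among them the laminin chains LAMA1 (1.27 ± 0.18), LAMA5 (1.32 ± 0.20), LAMB1 (0.90 ± 0.14) and LAMB2 (1.01 ± 0.12), the linker NID1 (0.80 ± 0.16), the proteoglycan HSPG2 (0.95 ± 0.20) and the peroxidase PXDN (0.70 ± 0.11). Of 14 receptor and turnover genes 8 were higher: the integrin chains ITGA1, ITGA2, ITGA11 and ITGB1, the endocytic receptor MRC2, MMP2 and MMP14, which cleave matrix, and their inhibitor TIMP2. Both the collagen genes and their processing enzymes were thus mostly called higher in the MC 1568 samples.

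LAQ824, labelled as an inhibitor of HDACs in general, raised 15 of 33 collagen genes (45.5%) and lowered 2, where 28.4% of all genes were called higher and 24.6% lower. The median change of the 33 genes was 0.30 and that of all genes 0.06. The rises fell on 5 of 9 fibrillar, 1 of 3 basement membrane and 9 of 21 other genes. Within its flow cell 15 were again higher and 2 lower, where 35.4% and 32.9% of all genes were.

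COL20A1, a FACIT gene, changed most under LAQ824, from 0.789 to 1.53 TPM in DMSO to 6.00 and 7.48 TPM (1.85 ± 0.34, adjusted p = 6.38e-05). COL26A1, a little-studied collagen first found in testis and ovary, went from 1.51 to 1.95 TPM in DMSO to 6.96 and 10.7 TPM (1.82 ± 0.26, adjusted p = 3.38e-06). COL5A3, the third type V chain, went from 10.5 to 10.9 TPM in DMSO to 33.2 and 36.9 TPM (1.62 ± 0.24, adjusted p = 4.36e-06). In all 3 genes both LAQ824 samples lay above every DMSO library, which is no further support in genes picked for their large called changes.
COL1A1 rose to 248 and 249 TPM (1.36 ± 0.19, adjusted p = 2.35e-06), COL5A1 to 486 and 490.0 TPM (0.54 ± 0.16, adjusted p = 0.00583) and COL18A1 to 197 and 217 TPM (0.52 ± 0.13, adjusted p = 0.00162). The genes called lower were the FACIT genes COL19A1 (3.48 and 4.005 TPM, −0.57 ± 0.22, adjusted p = 0.0347) and COL21A1 (0.944 and 0.916 TPM, −0.57 ± 0.21, adjusted p = 0.0231); COL19A1 was not called after median-ratio scaling (adjusted p = 0.0798) or without any 1 of the doses or DMSO concentrations.
COL3A1, the highest collagen gene, was at 2142 and 2139.6 TPM and was not called. Of 65 genes of the handling lists, 18 were higher and 17 lower under LAQ824, close to the 28.4% and 24.6% of all genes.

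The pairs of type IV genes that share a start region moved differently under LAQ824. COL4A1 was at 306 and 302 TPM and COL4A2 at 389 and 405 TPM, with changes of −0.03 ± 0.12 and −0.03 ± 0.12, neither called. COL4A4 was at 1.49 and 1.44 TPM, from 161 and 184 reads, against 0.131 to 0.221 TPM in DMSO, from 11 to 15 reads (1.08 ± 0.20, adjusted p = 8.23e-05). COL4A3, which the filter left untested, was at 0.531 and 0.581 TPM, from 45 and 58 reads, against 0 to 5 reads in the DMSO libraries. COL4A4 was also called under MC 1568 (1.69 and 0.400 TPM, 0.73 ± 0.20, adjusted p = 0.0106; 0.0991 within the flow cell) and under WT161 (1.04 and 0.412 TPM, 0.54 ± 0.20, adjusted p = 0.0422), in both mainly through the high dose. Under Merck60 and OJI-1 COL4A4 had 3 to 6 reads a library, and those of the high dose of Merck60 may be overstated. COL4A5 had 1 read in all 40 treated samples together, and COL4A6 at most 0.128 TPM.

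Across the 40 treated samples, the log2 levels of COL4A1 and COL4A2 had a Pearson correlation of 0.97 and those of COL4A3 and COL4A4 of 0.86, or 0.95 and 0.82 over the 38 samples other than MC 1568. The samples share compounds and flow cells, so these are descriptions. The ratio of COL4A2 to COL4A1 stayed between 1.08 and 1.34 in the treated samples.

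**Figure D3:**
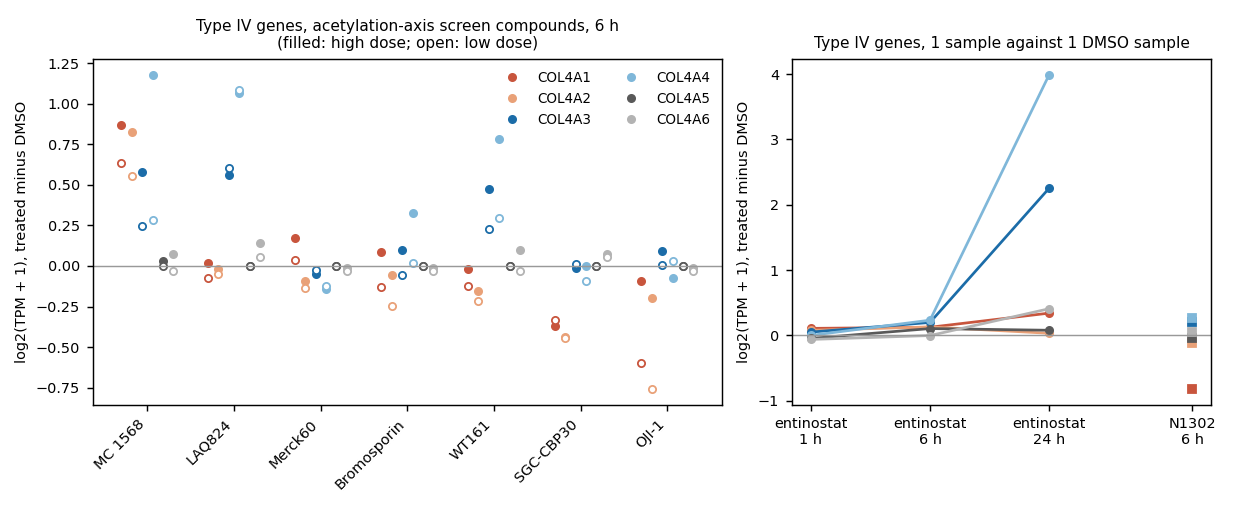
Changes of the 6 type IV genes on the log2(TPM + 1) scale: at the left, high (filled) and low (open) doses of the 7 acetylation-axis screen compounds against matched DMSO; at the right, entinostat at 1, 6 and 24 h and N1302 at 6 h, 1 sample against 1. COL4A3 and COL4A4 lie above COL4A1 and COL4A2 under LAQ824 and under entinostat at 24 h, where COL4A4 reaches 3.99.

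Fewer collagen genes were called under the remaining HDAC compounds. WT161 raised 3 genes and lowered 2, where 17.7% of all genes were higher and 14.3% lower, so its collagen counts were below the background share in both directions. The 3 higher genes were COL5A3 (26.6 TPM at the high and 12.5 TPM at the low dose, 0.73 ± 0.24, adjusted p = 0.0209), COL4A4 and COL9A3 (0.46 ± 0.16, adjusted p = 0.0251). COL9A3 passed the filter only through the high dose of WT161 (1.01 TPM) and entinostat at 24 h (1.49 TPM). Its call is therefore not independent of the filter, and its DMSO libraries held only 3 to 10 reads. COL1A2 fell to 1.02 and 0.927 TPM (−0.77 ± 0.18, adjusted p = 0.00257) and COL6A2 to 157 and 158 TPM (−0.38 ± 0.14, adjusted p = 0.0345). Without the high dose or without 0.2% DMSO 1 gene was called under WT161, without 0.1% DMSO none; within the flow cell there were 6 higher and 2 lower, and COL6A2 was not among them (−0.08 ± 0.11, adjusted p = 0.607). For Merck60, 0.0245% and 0.0917% of all genes were higher and lower, for OJI-1 0.0856% each way, and no collagen gene was called. Without the high-dose sample, 5 genes were called for OJI-1, whose low-dose sample had the lowest COL1A1 (65.4 TPM), COL18A1 (81.4 TPM) and COL12A1 (9.09 TPM) of the 40 treated screen samples.

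Both bromodomain compounds had more lower than higher calls among the collagen genes. Bromosporin lowered 4 of 33 collagen genes (12.1%) and raised 2 (6.06%), where 23.4% of all genes were lower and 12.4% higher. Its collagen counts were thus below the background share in both directions. SGC-CBP30 lowered 5 (15.2%) and raised 1 (3.03%), where 2.68% of all genes were lower and 0.727% higher (2.45% and 0.611% within the flow cell). COL19A1, COL21A1 and COL14A1, which are FACIT genes, were the collagen genes called lower under both compounds. The other FACIT genes were not called lower under either.
COL19A1 went from 5.56 to 6.39 TPM in DMSO to 1.56 and 2.16 TPM under SGC-CBP30 (−1.31 ± 0.22, adjusted p = 0.00138) and 3.80 and 2.14 TPM under Bromosporin (−0.86 ± 0.22, adjusted p = 0.00471). COL21A1 went from 1.69 to 2.11 TPM to 0.399 and 0.626 TPM (−0.93 ± 0.21, adjusted p = 0.0122) and to 0.715 and 0.469 TPM (−0.85 ± 0.21, adjusted p = 0.00281). COL14A1, which binds the surface of fibrils, went from 1.39 to 1.61 TPM to 0.450 and 0.792 TPM (−0.64 ± 0.16, adjusted p = 0.0228) and to 0.664 and 0.467 TPM (−0.69 ± 0.16, adjusted p = 0.00189).
All 4 treated samples lay below the 4 DMSO libraries in each of the 3 genes, which were picked by their calls, so this only describes them. SGC-CBP30 also lowered COL18A1 (94.6 and 97.1 TPM, −0.58 ± 0.13, adjusted p = 0.0120) and COL4A2 (292 and 307 TPM, −0.44 ± 0.12, adjusted p = 0.0355). Bromosporin raised COL6A3 (6.15 and 5.82 TPM, 0.76 ± 0.22, adjusted p = 0.00794) and lowered COL8A2 (adjusted p = 0.0325), and within the flow cell COL5A3 (0.58 ± 0.20, adjusted p = 0.0313) and COL6A2 (0.37 ± 0.11, adjusted p = 0.0123) were called higher as well. For SGC-CBP30 the calls rested on single samples: none were left without the high dose, 1 without either DMSO concentration, and 3, all lower, within the flow cell, where COL18A1 (−0.29 ± 0.10, adjusted p = 0.138) and COL4A2 (−0.17 ± 0.10, adjusted p = 0.426) were no longer called.

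Of the methylation-axis compounds, UNC0638, aimed at KMT1C, lowered 4 collagen genes and raised 1, where 9.76% of all genes were lower and 2.37% higher. The genes lowered included both chains of the common type IV molecule. COL18A1 fell to 83.7 and 97.2 TPM from 139 to 152 TPM (−0.67 ± 0.13, adjusted p = 0.00478). COL4A2 fell to 244 and 279.6 TPM from 393 to 422 TPM (−0.64 ± 0.12, adjusted p = 0.00399), COL6A2 to 113 and 167 TPM from 199.8 to 216 TPM (−0.57 ± 0.14, adjusted p = 0.0118) and COL4A1 to 209.6 and 227 TPM from 299.5 to 324 TPM (−0.51 ± 0.12, adjusted p = 0.0134). COL21A1, lowered by the bromodomain compounds, was higher here, at 4.54 and 2.91 TPM (0.70 ± 0.21, adjusted p = 0.0301). Within the flow cell the call of COL6A2 was lost (−0.29 ± 0.11, adjusted p = 0.0738). The doses were unlike each other: COL3A1 was 1134 TPM at the high dose, the lowest of the 40 treated screen samples, and 2122 TPM at the low dose. Calls numbered 16 without the low dose, 1 without the high dose, 2 without 0.2% DMSO and 0 without 0.1% DMSO.

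GSKLSD1 raised 4 collagen genes and lowered none, where 2.81% of all genes were higher and 0.703% lower. These were COL20A1 (2.73 and 5.38 TPM, 1.19 ± 0.34, adjusted p = 0.0475), COL1A1 (211 and 208 TPM, 1.11 ± 0.19, adjusted p = 0.00089), COL7A1, the anchoring fibril chain (6.64 and 10.1 TPM, 0.97 ± 0.24, adjusted p = 0.0226), and COL6A3 (6.60 and 6.91 TPM, 0.91 ± 0.22, adjusted p = 0.0156). LSD-519 and LSD-690, which carry the same target label, had no call, where 0.544% and 1.07% of all genes were higher and 0.0428% and 0.336% lower. They were sequenced on another flow cell than GSKLSD1, and the difference between the compounds was not tested. GSKLSD1 kept 1 call without the low dose or without either DMSO concentration, had 2 after median-ratio scaling and 11 with all 4 DMSO libraries, and had no DMSO on its flow cell.

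Of the 40 treated screen samples, 34 lay above the highest screen DMSO library for COL6A3, 30 for COL5A2 and 29 for COL1A1. COL1A1 was the collagen gene called most often: it was higher than DMSO under 8 of 20 compounds. Its change was above 0 under 16, all set against the same DMSO values. Beside MC 1568, LAQ824 and GSKLSD1 these were Bromosporin (218 and 191 TPM, 1.08 ± 0.19, adjusted p = 0.000227), PFI-3 (201 and 199 TPM, 1.05 ± 0.19, adjusted p = 0.0252), UNC-1215 (192 and 195 TPM, 1.00 ± 0.19, adjusted p = 0.0363), SGC0946 (175 and 194 TPM, 0.93 ± 0.19, adjusted p = 0.0309) and SGC-CBP30 (155 and 161 TPM, 0.71 ± 0.19, adjusted p = 0.0340). Both doses of each of these compounds, picked by their calls, lay above all 4 DMSO libraries, which is a description and no further support. For PFI-3, UNC-1215 and SGC0946 it was the only collagen gene called, where 0.0183%, 0.0306% and 0.128% of all genes were higher and 0.0183 to 0.055% lower, and each of these calls was lost without 1 dose or 1 DMSO concentration.

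COL1A1 in the treated samples differed between flow cells, each of which carried other compounds. On C5JW5ACXX, with no DMSO, the 28 treated samples ranged from 65.4 to 218 TPM with a median of 127 TPM, on either side of the 89.7 to 102 TPM of DMSO. The 4 samples on H0VWNAGXX lay at 192 to 211 TPM. On C4JM1ACXX the 4 treated samples lay at 104 to 116 TPM and the DMSO libraries at 96.1 and 102 TPM. On H144EBGXX the 4 treated samples lay at 248 to 436 TPM and the DMSO libraries at 89.7 and 97.9 TPM. The part of the flow cell in these values was not tested. Set against the other compounds of their own flow cell or the DMSO libraries there, 3 of the 6 compounds with such a value were still called, namely MC 1568 (2.08 ± 0.10, adjusted p = 0.00779), LAQ824 (1.40 ± 0.10, adjusted p = 0.000281) and Bromosporin (0.73 ± 0.16, adjusted p = 0.00268). PFI-3 (0.71 ± 0.16, adjusted p = 0.996), SGC0946 (0.58 ± 0.16, adjusted p = 0.254) and SGC-CBP30 (0.34 ± 0.16, adjusted p = 0.314) were not.

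**Figure D4:**
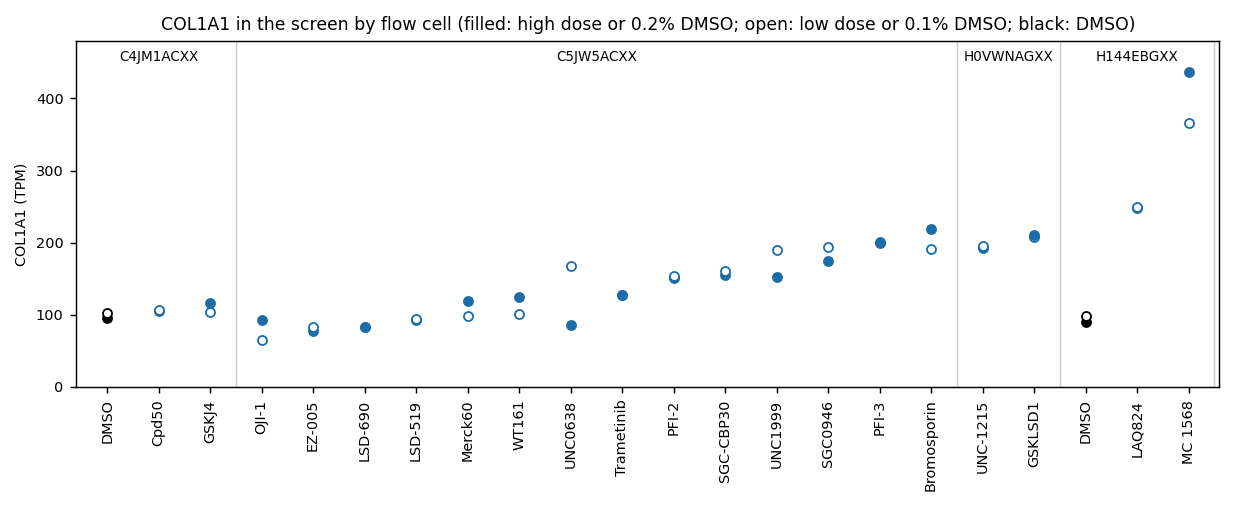
COL1A1 in TPM in the 44 screen samples, by flow cell and compound; filled points are high doses or 0.2% DMSO, open points low doses or 0.1% DMSO, and black points DMSO. Most compounds have like values at both doses, and MC 1568 stands highest at 436 and 366 TPM.

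PFI-2 lowered COL18A1 alone (93.5 and 97.6 TPM, −0.59 ± 0.13, adjusted p = 0.0362), where 0.318% of all genes were lower and 0.147% higher, and this call was lost without 1 dose or 1 DMSO concentration and within the flow cell. In Cpd50, EZ-005, GSKJ4, UNC1999 and Trametinib no collagen gene was called in limma, with 3, 3, 3, 6 and 8 of the 33 genes at an unadjusted p below 0.05. For Cpd50 3.43% of all genes were higher and 2.27% lower, for Trametinib 1.33% and 1.37%, for EZ-005 0.0122% and 0.0611%, for UNC1999 0.0245% and 0.0428%, and for GSKJ4 0.0% and 0.0122%. Cpd50 had 5 higher genes against the DMSO libraries of its flow cell, where 7.78% of all genes were higher and 10.1% lower.

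The 7 acetylation-axis compounds were compared with the 11 methylation-axis compounds, each compound counted once. No collagen gene was called, and no gene of 16359 either (0.0%; the smallest adjusted p was 0.0568), although 30.7% of all genes and 6 of the 33 collagen genes (18.2%) had an unadjusted p below 0.05 in limma. COL19A1 had the smallest p, with a mean change of −0.35 over the acetylation and 0.23 over the methylation compounds, a difference of −0.58 ± 0.22 (adjusted p = 0.0949). For COL5A3 the means were 0.53 and 0.00 and the difference 0.53 ± 0.21 (adjusted p = 0.103). COL4A4 (0.31 ± 0.14), COL26A1 (0.48 ± 0.22) and COL8A2 (0.47 ± 0.22) were higher and COL21A1 (−0.40 ± 0.19) lower on the acetylation axis by values that failed the adjustment. COL5A3 was called when the high doses were used alone or OJI-1 was left out, and COL19A1 when MC 1568 or Merck60 was left out.

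The controls were compared with each other as the background of these changes. Between 0.2% and 0.1% DMSO no collagen gene and no gene at all (0.0%) was called in limma, and 4 of the 33 collagen genes and 9.46% of all genes had an unadjusted p below 0.05.

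N1302 was followed in 1 sample, which allows no test. Genes are described as past 2-fold when log2(TPM + 1) differed by at least 1. With N1302, 3 collagen genes were past 2-fold higher and 4 lower, where 11.6% of all genes were higher and 19.3% lower, and the median change of the 33 genes was −0.09 against −0.11 for all genes.

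COL26A1 stood at 20.1 TPM (429 reads) with N1302 and at 0.427 TPM (13 reads) in its DMSO sample, a difference of 3.89. COL18A1 stood at 42.3 against 18.8 TPM (1.13) and COL6A2 at 168 against 79.8 TPM (1.06). The 4 lower genes of 33, a smaller share than the 19.3% of all genes, are all FACIT genes. COL19A1 was at 5.22 against 20.9 TPM (−1.82), COL14A1 at 2.29 against 8.14 TPM (−1.47) and COL12A1 at 8.62 against 18.9 TPM (−1.05), with COL21A1 the fourth. The 6 h DMSO sample of the time course held less of COL19A1 (8.17 TPM), COL14A1 (3.41 TPM) and COL12A1 (13.1 TPM). It held more COL26A1 (3.12 TPM) and a like level of COL21A1 (2.16 against 2.25 TPM). The size of most of these gaps therefore depends on the 1 control sample. COL19A1, COL14A1 and COL21A1 are the genes that were called lower under both bromodomain compounds of the screen, and COL19A1 and COL21A1 those lower under LAQ824. Entinostat at 6 h went the other way, with changes of 0.69 for COL19A1, 0.82 for COL14A1 and 1.03 for COL21A1. At 24 h these changes were −0.34, 0.88 and 0.62. With N1302 COL3A1 was at 977 against 1597 TPM and COL4A1 at 132 against 235 TPM, both lower within 2-fold, while COL4A2 was at 207 against 226 TPM. COL5A3 was at 17.6 against 9.83 TPM, and COL1A1 at 8.78 against 8.48 TPM, a difference of 0.05. COL4A4 was at 1.64 against 1.19 TPM, COL4A3 at 0.246 against 0.0860 TPM, and COL4A5 and COL4A6 had 1 to 3 reads in each sample. With a pseudocount of 0.1 in place of 1, 6 genes were past 2-fold higher; against the mean of both 6 h RH4-titled DMSO samples 1 was, and after median-ratio scaling 2 were lower.

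Entinostat, labelled as an inhibitor of HDAC1/2/3, was followed over time, and the number of genes past 2-fold higher was larger at each later time. At 1 h no collagen gene was past 2-fold, where 0.66% of all genes were higher and 0.581% lower. At 6 h 6 of 33 were higher and none lower, where 5.13% of all genes were higher and 0.947% lower, and all 33 changes were above 0, with a median of 0.43 against 0.02 for all genes. At 24 h 15 were higher and none lower, where 16.4% and 6.06% of all genes were, with a median of 0.94 against 0.10. The 15 were 5 fibrillar, 1 basement membrane and 9 other genes.

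At 6 h COL22A1, a FACIT gene of muscle-tendon junctions, stood at 3.55 against 0.730 TPM (1.40), COL1A2 at 3.04 against 0.555 TPM (1.38) and COL20A1 at 2.29 against 0.567 TPM (1.07). These 3 led the group, which also held COL25A1, COL5A2 and COL21A1. COL25A1 passed the filter only through the entinostat samples at 6 h (1.74 TPM) and 24 h (3.23 TPM). Its place among the higher genes at these times is therefore not independent of the filter. COL21A1, at 5.47 against 2.16 TPM, was higher with entinostat and lower with N1302.

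At 24 h COL4A4 stood at 20.2 TPM (2492 reads) against 0.336 TPM (45 reads), a difference of 3.99. Its neighbour COL4A3 stood at 3.99 TPM (385 reads) against 0.0477 TPM (5 reads), a difference of 2.25. COL4A1 and COL4A2 were at 198 against 156 TPM and 189 against 185 TPM, both within 2-fold. COL4A6 was at 0.448 against 0.0916 TPM (36 and 8 reads) and COL4A5 at 0.181 against 0.119 TPM.
COL26A1 was at 39.4 against 2.91 TPM (3.37) and COL1A1 at 67.9 against 7.20 TPM (3.07). COL1A1 had been at 13.02 against 6.85 TPM at 6 h and 7.23 against 6.17 TPM at 1 h. COL3A1, at 1298 against 1329 TPM, was at the control level, so the ratio of COL3A1 to COL1A1 was 19.1 in this sample, against 185 in its DMSO sample. The other genes past 2-fold higher were COL1A2, COL5A2, COL5A3, COL6A1, COL6A3, COL7A1, COL9A1, COL9A2, COL12A1, COL15A1, COL24A1 and COL25A1, with COL15A1 (9.84 against 0.670 TPM) and COL9A1 (11.8 against 1.47 TPM) among the largest ratios. COL5A3 was at 42.7 against 15.7 TPM.
In this sample the summed rhabdomyosarcoma markers were 1231 TPM against 2955 TPM in its DMSO sample. The summed fibroblast markers were 27.7 against 11.04 TPM (LUM 16.2 against 0.475 TPM), and the summed epithelial markers 7.98 against 0.856 TPM. THY1, TWIST2 and DPT, the fibroblast markers low in every sample, were at or below 0.0842 TPM. The part of these shifts in the collagen values was not tested. Of 65 handling genes, 20 were past 2-fold higher and 2 lower at 24 h, where 16.4% of all genes were higher and 6.06% lower.

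**Figure D5:**
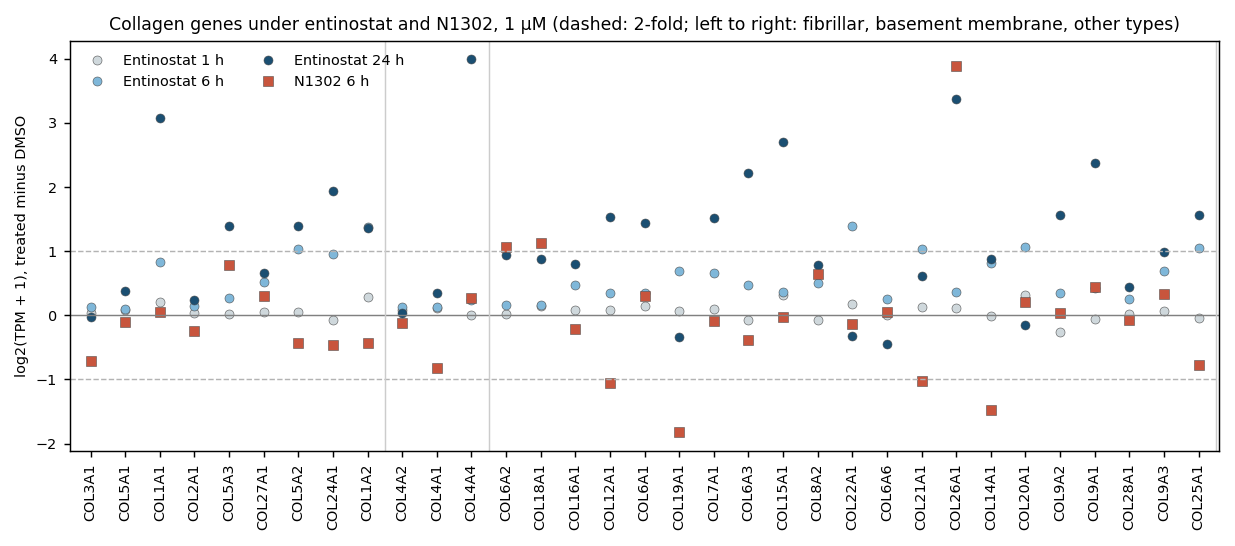
Changes of the 33 collagen genes tested under entinostat at 1, 6 and 24 h (circles) and N1302 at 6 h (squares), log2(TPM + 1) of 1 treated sample minus 1 DMSO sample; dashed lines mark 2-fold. At 24 h 15 genes lie above the upper line, and COL26A1 lies at 3.37 with entinostat and 3.89 with N1302.

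LAQ824, N1302, entinostat at 24 h and MC 1568 can be set side by side for COL26A1, COL5A3 and COL1A1, each against its own control. COL26A1 changed by 1.82 under LAQ824, 3.89 under N1302 and 3.37 under entinostat at 24 h, and under MC 1568 it was not called (0.37 ± 0.26, adjusted p = 0.328). COL5A3 changed by 1.62, 0.78, 1.39 and, under MC 1568, 1.05. COL1A1 changed by 1.36, 0.05, 3.07 and 2.04 in the same order. With entinostat at 6 h COL26A1, COL5A3 and COL1A1 differed by 0.36, 0.27 and 0.84, all within 2-fold. The rises were not shared by all HDAC compounds. COL5A3 was called higher under WT161, but Merck60 and OJI-1 had no collagen call, and COL1A1 changed by −0.30 under OJI-1. Times, doses and sample titles differ between these experiments, so the values are given without a comparison.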

How the data were processed

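Poly-A selected RNA of FP-RMS cells was sequenced as paired reads. The authors aligned the reads to hg19 with STAR and deposited TPM values per gene (RSEM in the study's methods); the submitters' processing notes also name edgeR. The deposited TPM values of each library were whole multiples of a step taken as a single read for each gene. The recovered reads (median 15055060 a sample) were used only to describe depth. Two-sided tests used the moderated linear models of limma 3.58.1 (R 4.3.3, prior variance following the mean level) on log2(TPM + 1), for genes with at least 1 TPM in at least 2 of 52 samples. Both doses of a compound served as its replicates, the DMSO libraries of a concentration were averaged (replicate 1 of both concentrations was on one flow cell and replicate 2 on another per the file headers, so the number pairs them by sequencing, and deviations of same-numbered libraries had a correlation of 0.0719), and p-values were adjusted over all 16359 genes (Benjamini-Hochberg, 0.05). The residual degrees of freedom were 21. N1302 and entinostat had 1 sample each and were not tested. Named genes were the 10 highest in DMSO, up to 3 called members with the largest change in each direction per compound, the type IV genes, and up to 3 past 2-fold in each direction in the single-sample experiments, plus handling genes called under MC 1568, of which some are not reported here; other members were named after their values were seen. The members and gene lists were chosen with earlier results of these data known. The tests were checked on simulated data for LAQ824, where 169 of 200 genes changed by 1.5 on the log2 scale were recovered. Alternatives were another pseudocount (0.1), median-ratio scaling, no filter, all 4 DMSO libraries, dose as a covariate, references within the flow cell, and leaving out 1 dose, DMSO concentration or compound.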

Additional observations from a re-analysis of the deposited data

Results flagged for a closer look

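The 10 collagen genes highest in DMSO were examined for a compound standing apart among the 7 of the acetylation axis, by Dixon's ratio of the gap to the range (95% critical value 0.568). MC 1568 stood apart in 6 of the 10, always as the highest. Its change on the log2(TPM + 1) scale was 0.90 for COL3A1 (nearest compound Bromosporin, 0.21), 0.69 for COL4A2 (LAQ824, −0.03), 0.75 for COL4A1 (Merck60, 0.10), 0.86 for COL2A1 (WT161, 0.17), 1.12 for COL16A1 (LAQ824, 0.18) and 1.31 for COL12A1 (Bromosporin, 0.19). The ratios ran from 0.588 for COL4A1 to 0.620 for COL4A2. Chance alone exceeds this value in about 1 in 20 groups, and the 10 genes share the same 7 compounds.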

How the results depend on the processing

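No called collagen gene changed direction under the alternatives run. Values that were not called could, as COL1A1 did within the flow cell under Merck60 (−0.24, from 0.17) and WT161 (−0.19, from 0.22). Of the 74 calls, 74 were kept with all 4 DMSO libraries, 72 with dose as a covariate, 71 without the filter, 69 with a pseudocount of 0.1, 66 after median-ratio scaling, 60 of 69 within the flow cell, and 39 to 56 with 1 dose or DMSO concentration left out. Leaving these out gave 37 to 50 higher calls in total (56 in all) and 4 to 25 lower calls (18 in all). All 4 DMSO libraries gave 35 lower calls, with 2 called genes for Cpd50, 11 for GSKLSD1, 2 for LSD-690, 3 for OJI-1, 3 for PFI-2, 1 for Trametinib, 9 for UNC0638 and 3 for UNC1999. References within the flow cell gave 5 for Cpd50, 1 for LSD-690, 0 for PFI-2, PFI-3 and SGC0946, 3 for SGC-CBP30, 1 for Trametinib and 8 for WT161. Median-ratio scaling gave 2 for GSKLSD1, 1 for LSD-690 and 0 for UNC-1215, which also had 0 with dose as a covariate. With 1 dose or DMSO concentration left out, calls ranged from 4 to 7 for Bromosporin, 1 to 4 for GSKLSD1, 12 to 13 for LAQ824, 18 to 25 for MC 1568, 0 to 5 for OJI-1, 0 to 6 for SGC-CBP30 and WT161, 0 to 16 for UNC0638 and 0 to 2 for UNC1999, and were 0 for PFI-2, PFI-3, SGC0946 and UNC-1215. Between the axes 1 collagen gene was called at the high dose alone and 0 to 1 with a compound left out. For N1302, a pseudocount of 0.1 gave 6 higher genes, the mean of both 6 h DMSO samples 1 higher, and scaling 2 lower; for entinostat at 24 h a pseudocount of 0.1 gave 1 lower. The cause of these shifts was not tested. Scaling shifted the log2 values relative to DMSO by 0.119 for Bromosporin, 0.126 for Cpd50 and 0.113 for UNC0638. The median change of all genes went from −0.124 to −0.035, from −0.054 to 0.032 and from −0.119 to −0.034 in the same order.

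Between the DMSO concentrations, the fit with the replicate block called 0 collagen genes, as did the fit without it. The block is also a block for flow cell, and no other comparison had one. Depth limits COL4A3, COL4A5 and COL4A6, which had few reads in most samples.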
